A study of Homo sapiens with 18 samples.

Results

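The 44 genes described here lie along chromosome 9, from DOCK8 at the tip of the short arm (9p) to EHMT1 near the tip of the long arm (9q), and they are 44 of the 54425 genes of the count table. They were chosen by name, with results of these data in view, to read along the chromosome where AF4-MLL cells stood above both other settings on each day. The comparisons of AF4-MLL cells with either other setting are therefore given as a description with no test. 16 of the genes lie on 9p and 28 on 9q. 42 passed the filter on low counts, 14 of them on 9p and 28 on 9q. TEK, a receptor kinase of endothelial cells, and LINGO2, a neuronal membrane protein, did not, with means of 5.61 and 2.67 counts per library.

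ATAC-seq uses a transposase that inserts sequencing adapters into DNA left open between nucleosomes. The reads counted over a gene therefore rise with the openness of its chromatin, and they also rise with the number of copies of that DNA in the nucleus. In counts summed per gene these cannot be told apart. MLL (KMT2A), a histone methyltransferase, and AF4 (AFF1), a factor of transcription elongation, are joined by the translocation t(4;11) of acute leukaemia, which gives the fusion proteins MLL-AF4 and, from the reciprocal product, AF4-MLL.

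All 18 libraries came from HEK293T cells, a transformed line derived from human embryonic kidney, and every group held 3 libraries. AF4-MLL cells carried an inducible AF4-MLL transgene, and MLL-AF4 cells an inducible MLL-AF4 transgene. Co-expression cells expressed MLL-AF4 constitutively and carried in addition an inducible AF4-MLL transgene, introduced by a transient second transfection. Per the study's methods this second vector was then left without selection and lost. Transgenes were delivered by Sleeping Beauty transposon vectors and induced in all groups with doxycycline at 1 µg/ml for 48 h, doxycycline was then withdrawn, and nuclei were taken on day 3 and on day 28. The 18 labelled libraries hold no mock-transfected cells. Each setting was a transfected line of its own, so the setting and the line cannot be told apart. The labels number 3 biological replicates in each group without stating separate cultures, and p-values measure only the spread between these libraries.

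Totals ranged from 442159 to 3539937 counts per library, and the members held between 684 and 2090 counts of each. The library of AF4-MLL day 3 replicate 2 was the shallowest. Mitochondrial genes took 32.7% to 45.6% of the counts on day 3 and 63.6% to 68.5% on day 28 in all settings. All 6 listed kidney or epithelial genes (PAX2, LHX1, EYA1, VIM, KRT8 and KRT18) passed the filter, with means of 17.8 to 97.9 counts. Of 6 genes of other cell types, CD3E, ALB and INS failed the filter, while PTPRC, APOA1 and MYH6 passed it with means of 10.8 to 34.9 counts, so counts over genes did not separate these lists. Levels below are in CPM, a count divided by its library size after scaling by trimmed means (TMM) and multiplied by 1000000. Fitted differences are log2 values, given with a standard error (SE).

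Counts over KMT2A, parts of which both constructs hold, checked the labels only in part. In AF4-MLL libraries KMT2A had 83.3, 108 and 97.9 CPM on day 3 and 99, 100 and 83 on day 28, above all other libraries. MLL-AF4 libraries had 40.2, 39.3 and 27.7 on day 3 and 47, 43.5 and 45.6 on day 28, and co-expression libraries 47.3, 53.7 and 57.4 and then 79.9, 59.8 and 62.5. Co-expression libraries thus lay above MLL-AF4 on both days and stood no lower on day 28 than on day 3, so these counts do not show a loss of the second vector by day 28. They cannot be assigned to a construct or to the gene of the cells. By other measures, the paper reports a diminishing AF4-MLL transcript (RT-PCR) and a falling number of cells with the fluorescent marker of that vector.

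TLE4, KLF4 and VAV2 passed the test in comparisons that the choice of members did not use, though these share libraries with those it used. NOTCH1 was the member called between AF4-MLL and co-expression cells on both days. The promoters of these 4 members on 9q are therefore shown. Each runs from 250 bases before to 50 bases after the RefSeq start of the gene in GRCh38.p14, 5′ to 3′ on the strand of the gene, and capitals mark each CpG (the letters CG, searched on the strand shown, which reads the same on the other).
TLE4: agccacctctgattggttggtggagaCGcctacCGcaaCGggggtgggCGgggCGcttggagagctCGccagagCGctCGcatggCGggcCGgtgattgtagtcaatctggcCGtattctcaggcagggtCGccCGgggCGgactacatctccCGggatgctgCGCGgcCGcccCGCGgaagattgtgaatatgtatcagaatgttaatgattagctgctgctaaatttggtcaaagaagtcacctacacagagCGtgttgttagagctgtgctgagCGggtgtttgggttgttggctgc
KLF4: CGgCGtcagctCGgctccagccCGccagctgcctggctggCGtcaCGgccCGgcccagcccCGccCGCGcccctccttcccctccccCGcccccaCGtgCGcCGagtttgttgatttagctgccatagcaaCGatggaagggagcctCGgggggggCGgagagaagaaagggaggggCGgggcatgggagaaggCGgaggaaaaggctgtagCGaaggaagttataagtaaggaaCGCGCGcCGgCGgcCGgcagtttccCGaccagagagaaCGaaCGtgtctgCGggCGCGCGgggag
VAV2: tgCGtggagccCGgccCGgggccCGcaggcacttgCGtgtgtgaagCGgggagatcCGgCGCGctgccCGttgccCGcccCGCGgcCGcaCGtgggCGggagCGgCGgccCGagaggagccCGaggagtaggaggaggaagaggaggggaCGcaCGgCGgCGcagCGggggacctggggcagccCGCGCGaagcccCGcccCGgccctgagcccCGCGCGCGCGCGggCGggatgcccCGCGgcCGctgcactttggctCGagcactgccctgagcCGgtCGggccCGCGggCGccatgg
NOTCH1: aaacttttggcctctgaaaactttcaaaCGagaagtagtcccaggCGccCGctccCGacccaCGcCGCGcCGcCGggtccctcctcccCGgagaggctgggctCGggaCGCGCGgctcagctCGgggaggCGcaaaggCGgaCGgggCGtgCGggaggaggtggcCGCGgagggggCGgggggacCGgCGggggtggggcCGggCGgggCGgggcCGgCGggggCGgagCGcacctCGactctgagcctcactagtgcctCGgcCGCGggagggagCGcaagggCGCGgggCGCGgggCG
TLE4 lies on the plus strand (promoter chr9:79571715-79572014) and KLF4 on the minus strand (chr9:107489720-107490019). VAV2 (chr9:133992275-133992574) and NOTCH1 (chr9:136545999-136546298) also lie on the minus strand. The windows hold 22, 33, 46 and 42 CpG in that order. Among the 35116 promoters of 300 bases listed in RefSeq, 37.7% held at least as many as TLE4, 17.2% as many as KLF4, 2.89% as many as VAV2 and 5.85% as many as NOTCH1. CpG was present in all 44 member promoters and in 96.0% of all promoters, with a median of 27 per window for the members and 14 for all.

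AF4-MLL cells stood above both other settings at most members of 9q and at few of 9p. On day 3 the fitted level was above both MLL-AF4 and co-expression for 18 of 28 members on 9q and for 2 of 14 on 9p, against 30.3% of all 17660 genes tested. It was below both for 10 of 14 members on 9p and for 0 of 28 on 9q, against 31.5% of all genes. By day 28 the level was above both for 20 of 28 members on 9q and 5 of 14 on 9p, where 31.5% of all genes were, and below both for 3 on 9p and 0 on 9q, where 32.1% of all genes were. 14 members stood above both on both days (11.1% of all genes), namely NFIB on 9p and ENG, SET, CDK5RAP2, LMX1B, GSN, NR6A1, ASTN2, NOTCH1, SYK, TSC1, ROR2, EHMT1 and RXRA on 9q. These counts follow from the rule by which the genes are read, and nothing is inferred from them. Leaving out 1 library moved them. The 18 members of 9q above both on day 3 became 15 and 14 without MLL-AF4 replicates 2 and 3, and were 17 to 19 otherwise. The 20 of 9q on day 28 ranged from 19 to 23, and the 5 of 9p from 4 to 6. On both days 13 of 9q became 11 to 15, and the 10 of 9p below both on day 3 became 8 to 10. The count of 9q members below both on day 3 was 1 with a loess offset, 2 with no filter on low counts, 2 without AF4-MLL replicate 2 and 1 without any 1 of the co-expression replicates of that day. The 2 members of 9p above both on day 3 became 3 without AF4-MLL replicate 1 or co-expression replicate 1 or 2, and 1 without AF4-MLL replicate 3 or MLL-AF4 replicate 1. On day 28 the 3 members of 9p below both became 5 without AF4-MLL replicate 1, 1 without AF4-MLL replicate 2, and 2, 6 and 4 without MLL-AF4 replicates 1, 2 and 3. On 9q the 0 below both on day 28 became 1 without any 1 of the AF4-MLL replicates or without MLL-AF4 replicate 1 or 3.

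**Figure D1:**
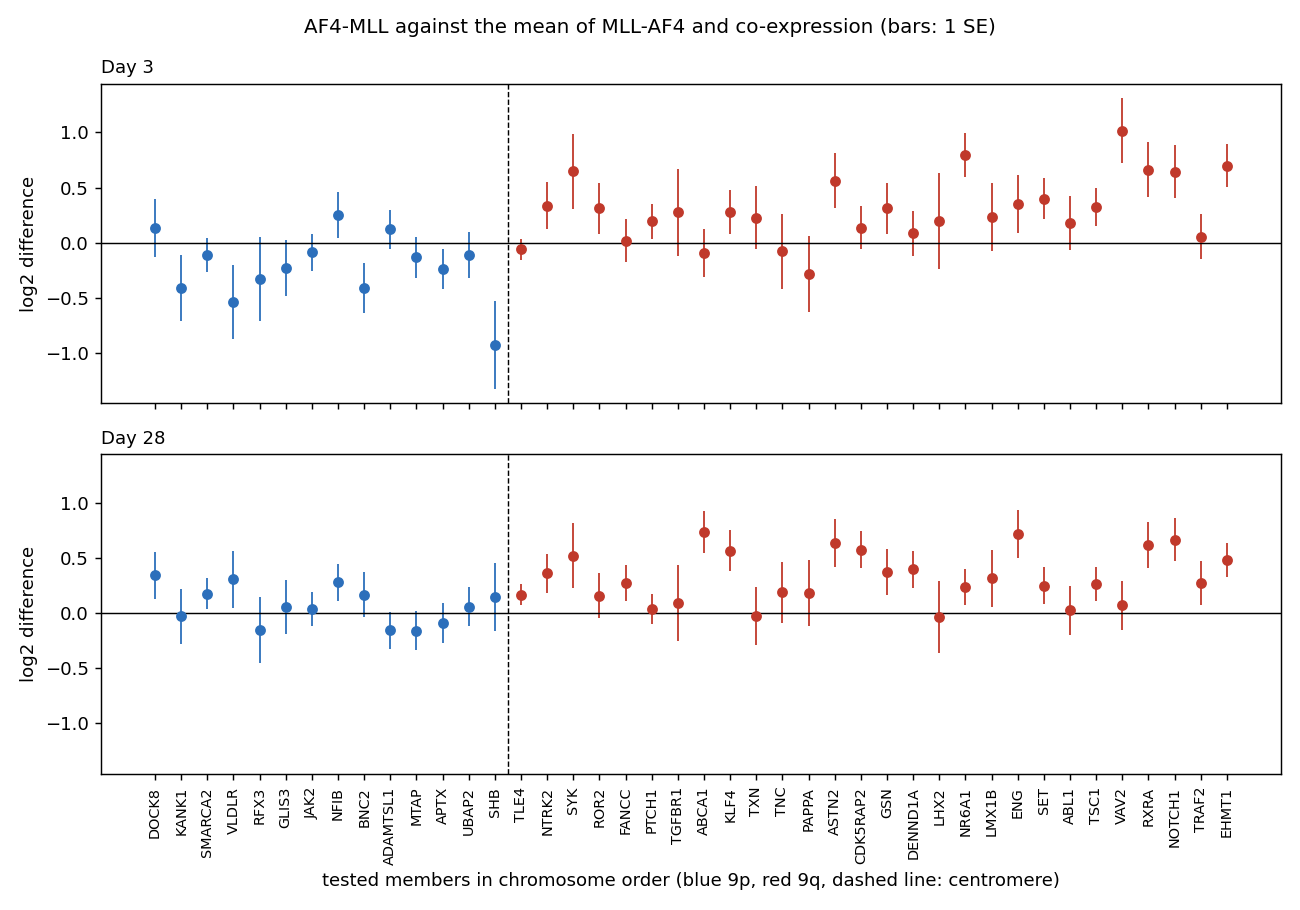
Fitted log2 difference of AF4-MLL cells from the mean of MLL-AF4 and co-expression cells for the 42 tested members in chromosome order, on day 3 (top) and day 28 (bottom), with bars of 1 SE. Members of 9p (blue) lie mostly below 0 on day 3, with SHB lowest at −0.93, and members of 9q (red) lie mostly above 0 on both days, with VAV2 highest on day 3 at 1.02.

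Over all 458 tested genes of 9q, members included, the median log2 difference of AF4-MLL from MLL-AF4 cells was 0.26 on day 3 and 0.27 on day 28, and from co-expression 0.29 and 0.34. For the 28 members on 9q alone these medians were 0.14, 0.21, 0.41 and 0.40 in the same order. Over the 157 tested genes of 9p they were −0.11, 0.02, −0.02 and −0.05, and over the 17045 genes not placed on chromosome 9 they were −0.008, −0.005, −0.013 and −0.013. Against the mean of both settings, the 430 other genes of 9q had a median of 0.28 on day 3 and 0.32 on day 28, and the 28 members 0.28 on both days. Among 23 chromosomes (the autosomes and X), chromosome 9 had the highest median for AF4-MLL cells compared with MLL-AF4 on day 28 (0.21) and with co-expression on both days (0.22 and 0.25). Against MLL-AF4 on day 3 it had rank 3 at 0.14, below chromosomes 19 (0.22) and 22 (0.21), and chromosome 4 was lowest at −0.20. Against co-expression chromosome 15 was lowest, at −0.302 on day 3 and −0.298 on day 28, further from 0 than chromosome 9. Against MLL-AF4 on day 28 chromosome 17 was lowest at −0.143. Each comparison with AF4-MLL cells of a day uses the same AF4-MLL libraries.

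Per library, the summed level of the tested 9q genes in AF4-MLL cells was 10335 ± 136 CPM on day 3 and 10790 ± 40 on day 28 (SD, n = 3). In MLL-AF4 cells it was 8844 ± 37 and 8843 ± 33, and in co-expression cells 8588 ± 183 and 8500 ± 142. Every AF4-MLL library lay above every other library of its day, by 16.9% and 22% on average over MLL-AF4 and by 20.3% and 26.9% over co-expression. For 9p the sum on day 3 was 3133 ± 15 CPM in AF4-MLL, 3457 ± 30 in MLL-AF4 and 3161 ± 21 in co-expression cells. The day 28 sums in the same order were 3048 ± 78, 3047 ± 28 and 3199 ± 20. The sum of 9p was thus highest in the MLL-AF4 cells of day 3.

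The ratio of 9q to 9p counts within a library does not depend on scaling between libraries. On day 3 it was 3.30 ± 0.035 in AF4-MLL, 2.56 ± 0.0183 in MLL-AF4 and 2.72 ± 0.0733 in co-expression libraries (SD, n = 3). The ratios of day 28 in this order were 3.54 ± 0.0842, 2.90 ± 0.0376 and 2.66 ± 0.058. AF4-MLL libraries held the highest ratios on both days, from 3.27 to 3.64, where the other 12 ranged from 2.54 to 2.94. Other comparisons were not used by the choice of members but share libraries with those that were. Among them the ratio was higher on day 28 than on day 3 in MLL-AF4 (13.5%) and AF4-MLL cells (7.36%), without overlap. In co-expression cells it differed by −2.21% and the days overlapped. Between co-expression and MLL-AF4 cells the ratio differed by 6.24% on day 3 and by −8.44% on day 28, both without overlap. Each of these ratio differences without overlap had an exact permutation p of 0.1 (two-sided), the smallest that 3 against 3 libraries can give. Their adjusted p was 0.136 over 15 tests of arm totals and ratios. The 9p sum of MLL-AF4 cells differed by −11.9% between day 3 and day 28 and their 9q sum differed by −0.0113%, with exact permutation p-values of 0.1 and 1.0. Other chromosomes also shifted between the days in MLL-AF4 cells. Chromosome medians ran from 0.281 (chromosome 19) to −0.195 (chromosome 4) on the log2 scale, with chromosome 9 at rank 10 (−0.021). The median of 9p was −0.184 and that of 9q 0.026, so shifts of this size were not particular to chromosome 9. The cause was not tested.

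**Figure D2:**
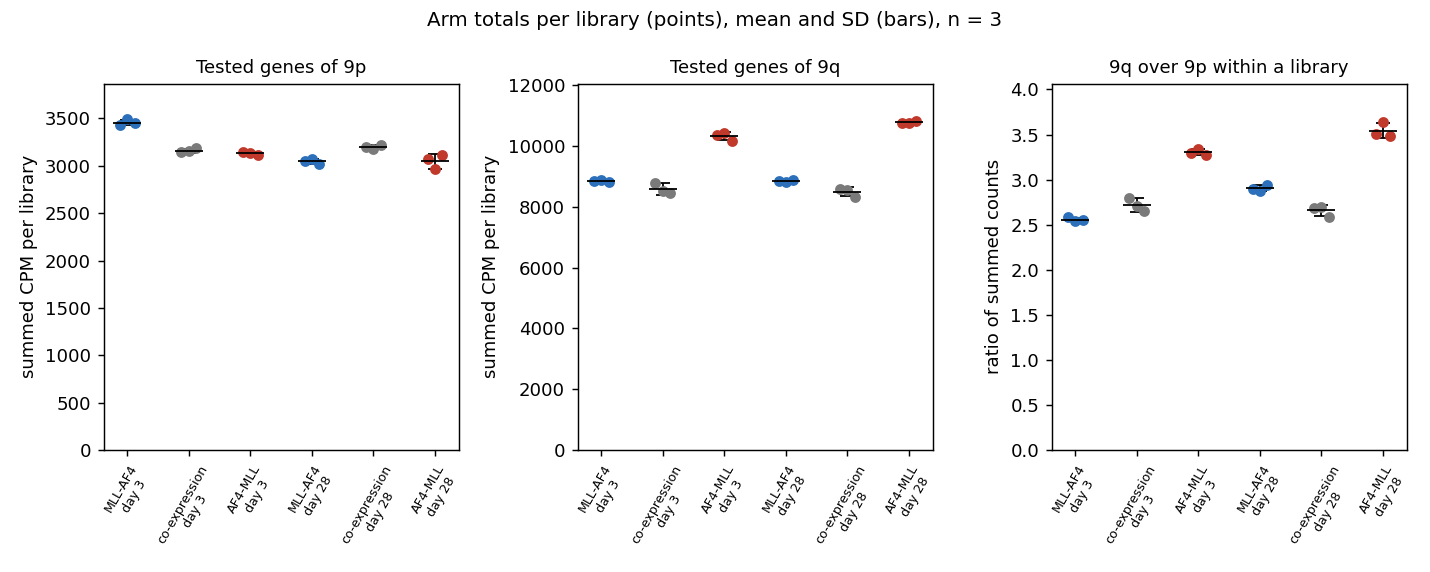
Summed CPM per library over the tested genes of 9p (left) and 9q (middle), and the ratio of 9q to 9p counts (right), for 3 libraries per group (points) with mean and SD (bars). The AF4-MLL libraries (red) lie above all others on 9q, between 10184 and 10836 CPM, while the 9p totals of all groups lie between 2962 and 3490 CPM.

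A running median over 25 neighbouring tested genes shows where along the chromosome the level changed. RefSeq genes leave a gap of 17.7 Mb between the starts of neighbouring genes at the centromere. Around SHB, the last tested member of 9p at 37.92 Mb, the running median of the difference from MLL-AF4 was −0.04 (day 3) and 0.04 (day 28), and from co-expression 0.01 and −0.05. Around TLE4, the first of 9q at 79.57 Mb, the same medians were 0.11, 0.22, 0.29 and 0.13. The 42 tested genes between the gap and TLE4, none of them a member, had medians of 0.10, 0.28, 0.22 and 0.27. Their summed level differed from MLL-AF4 by −0.356% on day 3, with overlap of libraries, so no shift was seen there. The difference was 23.9% from MLL-AF4 on day 28, and 11.3% and 23.3% from co-expression, without overlap. Genes next to the centromere include near-identical copies, such as those of the CBWD and CNTNAP3 families, whose reads the counting may have split, which was not tested.

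On day 3 the difference from MLL-AF4 cells was not even along 9q. The running median was 0.32 around SYK and ROR2 (90.80 and 91.72 Mb) and 0.26 around FANCC and PTCH1. It was 0.03 around TGFBR1 at 99.10 Mb, −0.06 around ABCA1, −0.01 around KLF4, 0.03 around TXN and 0.07 around GSN at 121.20 Mb. From DENND1A at 123.38 Mb (0.41) it stayed up to NOTCH1 (0.42) and TRAF2 (0.40). Against co-expression cells on the same day no such low stretch was seen, with 0.28 around TGFBR1, ABCA1, KLF4 and GSN. By day 28 the difference from MLL-AF4 was 0.33 around ABCA1 and KLF4 and 0.51 around TNC.

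**Figure D3:**
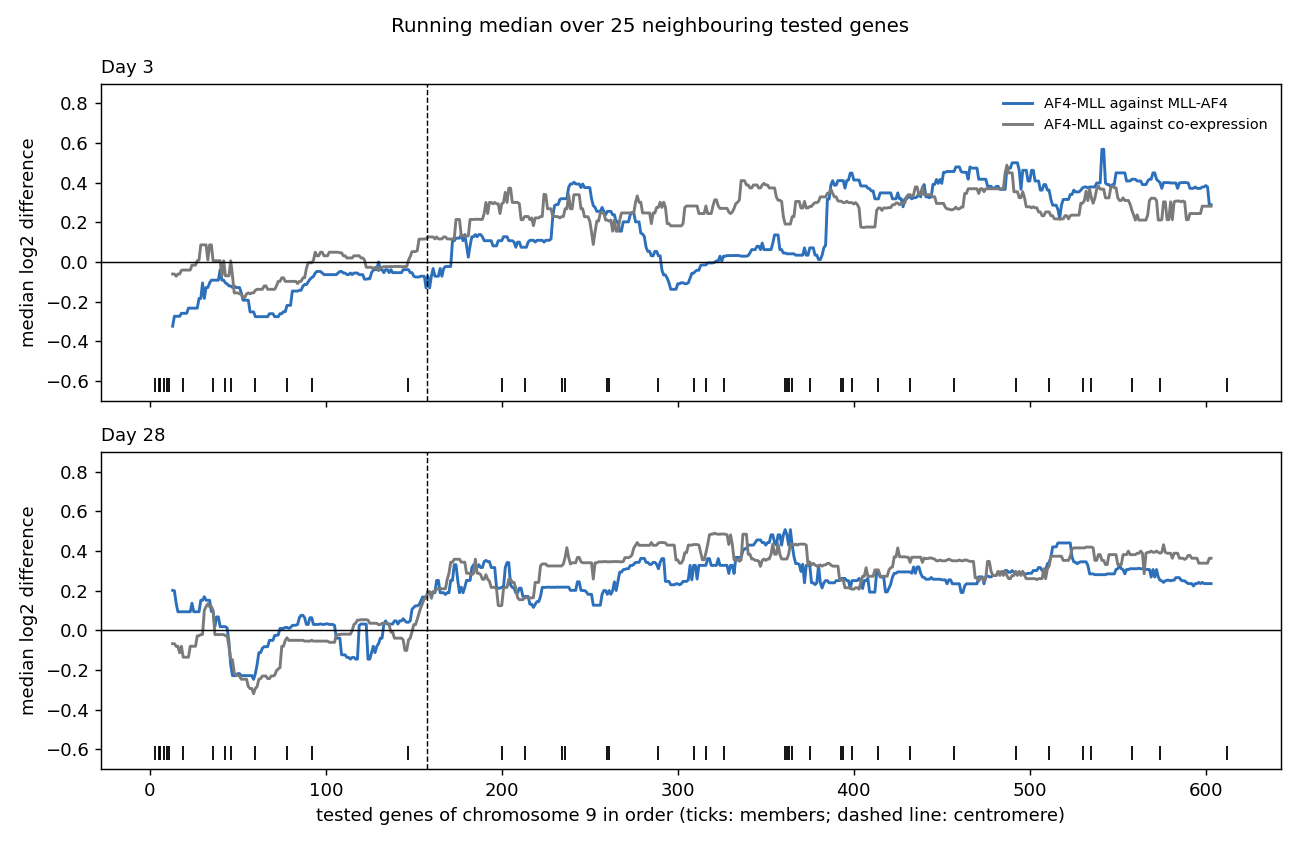
Running median of the fitted log2 difference of AF4-MLL cells from MLL-AF4 (blue) and from co-expression cells (grey) over 25 neighbouring tested genes, against gene order along chromosome 9, on day 3 (top) and day 28 (bottom). Ticks mark the members and the dashed line the centromere. The lines rise beyond the centromere, and on day 3 the blue line returns to near 0 from TGFBR1 to GSN.

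On 9p24, the tip of the short arm, 5 of 7 members stood below both settings on day 3 (RFX3, SMARCA2, KANK1, GLIS3 and VLDLR) and 1 (RFX3) on day 28. DOCK8, an exchange factor for small GTPases in immune cells, had 15.3, 11.6 and 14.6 CPM in the AF4-MLL libraries of day 3, 7.81, 15.2 and 11.6 in MLL-AF4 and 16.7, 19.4 and 9.56 in co-expression, and the groups overlapped. On day 28 its AF4-MLL libraries, at 17.6, 21 and 18.8, overlapped the other settings (9.4 to 20.1), and only replicate 2 lay above them. KANK1, a regulator of the actin skeleton, had 6.58, 14.5 and 9.25 CPM in AF4-MLL libraries of day 3 against 17.9, 11.4 and 12.7 in MLL-AF4 and 11.3, 6.71 and 12.3 in co-expression. The groups overlapped, and replicates 1 and 3 were the low AF4-MLL libraries. On day 28 KANK1 had 14.3, 12.7 and 9.07 CPM in AF4-MLL, 13.2, 10.6 and 11.6 in MLL-AF4 and 13.2, 14.3 and 10.6 in co-expression libraries, again with overlap. KANK1 shares its span with other genes. VLDLR, a lipoprotein and reelin receptor, had 6.03, 7.23 and 8.48 CPM in AF4-MLL libraries against 10, 14 and 12.7 in MLL-AF4 and 8.0, 8.95 and 9.56 in co-expression on day 3. All 3 AF4-MLL values lay below those of MLL-AF4 and overlapped co-expression only through replicate 3. By day 28 VLDLR stood at 14.3, 11.6 and 14 in AF4-MLL cells, against 7.42, 12.8 and 7.16 in MLL-AF4 and 10.3, 17.4 and 3.99 in co-expression. RFX3, a factor of ciliated cells, had 4.93, 10.1 and 4.62 CPM in AF4-MLL, 5.58, 7.61 and 9.25 in MLL-AF4 and 7.33, 6.71 and 7.51 in co-expression libraries of day 3. By day 28 these were 7.81, 9.39 and 6.98, 12.4, 6.69 and 8.06, and 8.93, 9.96 and 9.3. The groups overlapped on both days, and its fitted difference from the mean of both settings was −0.33 on day 3 and −0.15 on day 28 (SE 0.38 and 0.30). SMARCA2, an ATPase of the SWI/SNF remodeller, GLIS3, a zinc finger factor, and JAK2, a kinase of cytokine receptors, differed from that mean by −0.23 to −0.09 on day 3 and by 0.04 to 0.18 on day 28. JAK2 averaged 34.1 CPM in AF4-MLL and 35.9 in co-expression libraries of day 28.

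On 9p23-p21, NFIB, a transcription factor of lung and brain development, stood above both settings on both days, by 0.16 and 0.35 on day 3 and by 0.23 and 0.34 on day 28 on the log2 scale, with SEs of 0.20 to 0.26. MTAP, which recycles methylthioadenosine, stood below both on both days. Its AF4-MLL libraries had 29, 21.7 and 24.7 CPM on day 3, against 35.7, 26.6 and 19.7 in MLL-AF4 and 26.7, 31.3 and 32.1 in co-expression, and 22.8, 19.9 and 26.5 on day 28, against 26.4, 21.2 and 26.9 and 29.1, 23 and 27.9. The groups overlapped on both days. ADAMTSL1, a matrix glycoprotein, lay above both on day 3 and below both on day 28. On day 3 it had 27.9, 30.4 and 35.4 CPM in AF4-MLL, 23.4, 34.3 and 33.5 in MLL-AF4 and 24.7, 27.6 and 28.7 in co-expression libraries, with overlap. It then had 26, 22.7 and 31.4 CPM in AF4-MLL libraries of day 28 against 37.9, 24.5 and 33.1 in MLL-AF4 and 28.7, 23.7 and 34.6 in co-expression, and its groups overlapped too. BNC2, a zinc finger factor, differed from the mean of both by −0.41 (SE 0.22) on day 3 and 0.17 (SE 0.20) on day 28. Over all 42 tested genes of this stretch the summed level of AF4-MLL cells differed from MLL-AF4 by −15.4% on day 3 and −7.94% on day 28, and from co-expression by −6.27% and −12.7%, with no overlap of libraries in any of these 4 comparisons.

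On 9p13, APTX, which mends DNA strand breaks, and UBAP2, a ubiquitin-associated protein, stood below both settings on day 3, with fitted differences of −0.26 to −0.08. SHB, an adaptor of receptor kinases, had 5.48, 2.89 and 3.85 CPM in AF4-MLL libraries of day 3, 4.46, 11.4 and 13.9 in MLL-AF4 and 9.33, 6.71 and 6.15 in co-expression. The AF4-MLL values lay below all co-expression libraries and overlapped MLL-AF4 through 1 library. On day 28 SHB had 5.21, 8.29 and 12.6 CPM in AF4-MLL libraries, within the range of the other settings (5.58 to 12.5) but for replicates 1 and 3 at its ends. With a mean of 10.1 counts its fitted difference of −0.93 on day 3 had an SE of 0.40.

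On 9q21-q31, TLE4, a Groucho co-repressor, had the most counts of all members, with a mean of 292 per library. In AF4-MLL libraries it stood at 228, 236 and 209 CPM on day 3, between 267, 256 and 254 in MLL-AF4 and 195, 216 and 217 in co-expression, overlapping the latter only. On day 28 it stood at 232, 212 and 243, above all 3 MLL-AF4 libraries (185, 207 and 198) and overlapping co-expression (213, 212 and 199) in 1. SYK, a kinase of immune receptors, had 11, 5.79 and 10.8 CPM in AF4-MLL libraries of day 3, where MLL-AF4 had 4.46, 6.34 and 5.78 and co-expression 7.33, 7.46 and 6.83. On day 28 the AF4-MLL values of 11.1, 9.94 and 9.07 were higher than all of MLL-AF4 (6.59, 8.37 and 8.95) and co-expression (5.17, 6.23 and 7.98).

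ABCA1, which exports cholesterol from cells, was clear of the other settings on day 28 only. On day 3 its AF4-MLL libraries, at 17.5, 31.8 and 17 CPM, overlapped MLL-AF4 (25.7, 19 and 25.4) and co-expression (20.7, 20.9 and 17.1). On day 28 they stood at 31.3, 25.4 and 23, higher than every MLL-AF4 (17.3, 17.9 and 8.06) and co-expression library (17.4, 19.9 and 9.3), and the fitted difference from the mean of both was 0.74 with an SE of 0.19. The other members of this stretch differed less from the mean of both settings. NTRK2 stood at 0.34 on day 3 and 0.36 on day 28, and the Wnt receptor ROR2 at 0.31 and 0.16. FANCC, of the Fanconi repair pathway, stood at 0.02 and 0.27, and the Hedgehog receptor PTCH1 at 0.19 and 0.04. TGFBR1, a receptor of TGF-beta, stood at 0.28 and 0.09, and the redox protein TXN at 0.23 and −0.02, and the SEs of these 6 members were 0.13 to 0.40. A value above 0 did not always mean a level above both settings. In mean CPM, AF4-MLL lay below MLL-AF4 on day 28 in NTRK2 (28.7 against 30.2) and PTCH1 (47.3 against 49). In TGFBR1 it did so on both days (7.18 against 7.46 and 6.57 against 8.04). In FANCC it lay below co-expression on day 3 (27 against 27.9). ABCA1 shares part of its span with the gene NIPSNAP3B, and reads of the shared part could belong to either.

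On 9q33, ASTN2, an astrotactin of migrating neurons, had 20.8, 20.2 and 13.1 CPM in AF4-MLL libraries of day 3, against 10, 16.5 and 17.3 in MLL-AF4 and 6.67, 13.4 and 10.9 in co-expression. On day 28 it had 16.9, 21.5 and 21.6, against 14, 15.1 and 9.85 and 15, 9.34 and 12, so that the groups overlapped on day 3 and not on day 28. ASTN2 encloses the gene TRIM32. CDK5RAP2, a centrosomal protein, overlapped the other settings on day 3 (26.9, 31.8 and 21.6 CPM in AF4-MLL, 32.4, 24.1 and 12.7 in MLL-AF4 and 21.3, 28.3 and 23.2 in co-expression). On day 28 its AF4-MLL libraries, at 36.5, 32 and 30, lay higher than all others, the highest of which was 28.

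NR6A1, an orphan nuclear receptor of germ cells, was among the members that stood out on day 3. It had 26.3, 31.8 and 38.5 CPM in AF4-MLL libraries, all above 19, 22.8 and 18.5 in MLL-AF4 and 16.7, 16.4 and 16.4 in co-expression. Day 28 gave 42.3, 30.4 and 23.7 against 32.1, 23.4 and 24.2 and 28.2, 33 and 19.9, and the groups overlapped. The fitted difference from the mean of both settings was 0.79 on day 3 (SE 0.20) and 0.24 on day 28 (SE 0.16). Of the others on 9q33, GSN, which severs actin filaments, stood at 0.31 and 0.38, DENND1A, which acts in membrane traffic, at 0.08 and 0.40, and LMX1B, a factor of limb and kidney, at 0.23 and 0.32. TNC was at −0.08 and 0.19, the protease PAPPA at −0.28 and 0.18, and the homeobox factor LHX2 at 0.20 and −0.03. SEs on 9q33 reached 0.44 (LHX2, with a mean of 8.33 counts). DENND1A averaged 26.4 CPM in AF4-MLL and 27.5 in MLL-AF4 libraries of day 3.

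On 9q34, the tip of the long arm, 8 of 9 members stood above both settings on day 3 and 7 on day 28. ENG, a co-receptor for TGF-beta, had 20.2, 22.7 and 17.4 CPM in AF4-MLL libraries of day 28, above all of MLL-AF4 (12.4, 8.93 and 14.3) and co-expression (14.1, 12.5 and 12). On day 3 its values of 16.4, 20.2 and 10 overlapped both (21.2, 11.4 and 8.09, and 12, 11.9 and 6.15). ENG was thus clear of the other settings on day 28 only. SET, a histone chaperone, stood at 0.40 and 0.25 against the mean of both on the 2 days, and TSC1, a brake on mTOR, at 0.32 and 0.27. The kinase ABL1 stood at 0.18 and 0.03, and TRAF2, an adaptor of TNF receptors, at 0.05 and 0.28. In mean CPM, AF4-MLL lay below MLL-AF4 in ABL1 on day 28 (15.3 against 16.9) and in TRAF2 on day 3 (22 against 23.3). The smallest fitted difference of a 9q34 member from co-expression on day 28 was 0.007. TRAF2 then averaged 20.7 CPM in AF4-MLL and 21.8 in co-expression libraries, so its place above co-expression rests on the fit alone.

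VAV2, an exchange factor in receptor signalling, had 14.8, 15.9 and 13.1 CPM in AF4-MLL libraries of day 3, above all of MLL-AF4 (5.58, 10.1 and 6.94) and co-expression (9.33, 5.22 and 5.46). On day 28 the AF4-MLL libraries had 13, 16.6 and 17.4, inside the range of MLL-AF4 (14.8, 20.1 and 18.8) but for replicate 1, and co-expression had 11.8, 13.1 and 12. The fitted difference from the mean of both was 1.02 (SE 0.29) on day 3 and 0.07 (SE 0.22) on day 28. RXRA, the partner of many nuclear receptors, had 15.9, 15.9 and 22.3 CPM in AF4-MLL libraries of day 3 against 17.9, 7.61 and 15 in MLL-AF4 and 10.7, 8.2 and 9.56 in co-expression. On day 28 it had 16.9, 22.7 and 23, above all of 11.5, 14.5 and 14.3 and of 13.2, 14.3 and 13.3. On day 3 only the MLL-AF4 replicate 1 reached into the AF4-MLL range.

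NOTCH1, a receptor of cell fate decisions, had 21.4, 15.9 and 20.8 CPM in AF4-MLL libraries of day 3, 11.2, 16.5 and 22 in MLL-AF4 and 7.33, 10.4 and 12.3 in co-expression. Day 28 values were 26, 25.4 and 24.4, against 23.1, 13.9 and 16.1 and 19.3, 10.6 and 10.6. It lay above all co-expression libraries on both days, and above all MLL-AF4 libraries on day 28. EHMT1, a histone methyltransferase of silenced chromatin and the last member, had 31.8, 40.5 and 23.9 CPM in AF4-MLL libraries of day 3, against 21.2, 15.2 and 19.7 in MLL-AF4 and 24, 12.7 and 19.8 in co-expression. By day 28 it had 38.4, 34.8 and 34.9, higher than all others, the highest of which was 29.1, and on day 3 only its replicate 3 fell below a co-expression library.

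All 3 AF4-MLL libraries lay above all 6 others for 2 of 42 members on day 3 (NR6A1 and VAV2), where 1.73% of all tested genes did. On day 28 they did so for 8 (ENG, CDK5RAP2, ASTN2, NOTCH1, SYK, ABCA1, EHMT1 and RXRA), where 2.02% of all genes did. All of these lie on 9q. For 0 members did they do so on both days, where 0.0906% of all genes did. For 0 members did all 3 lie below all 6 others on either day, where 1.53% and 1.76% of all genes did.

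**Figure D4:**
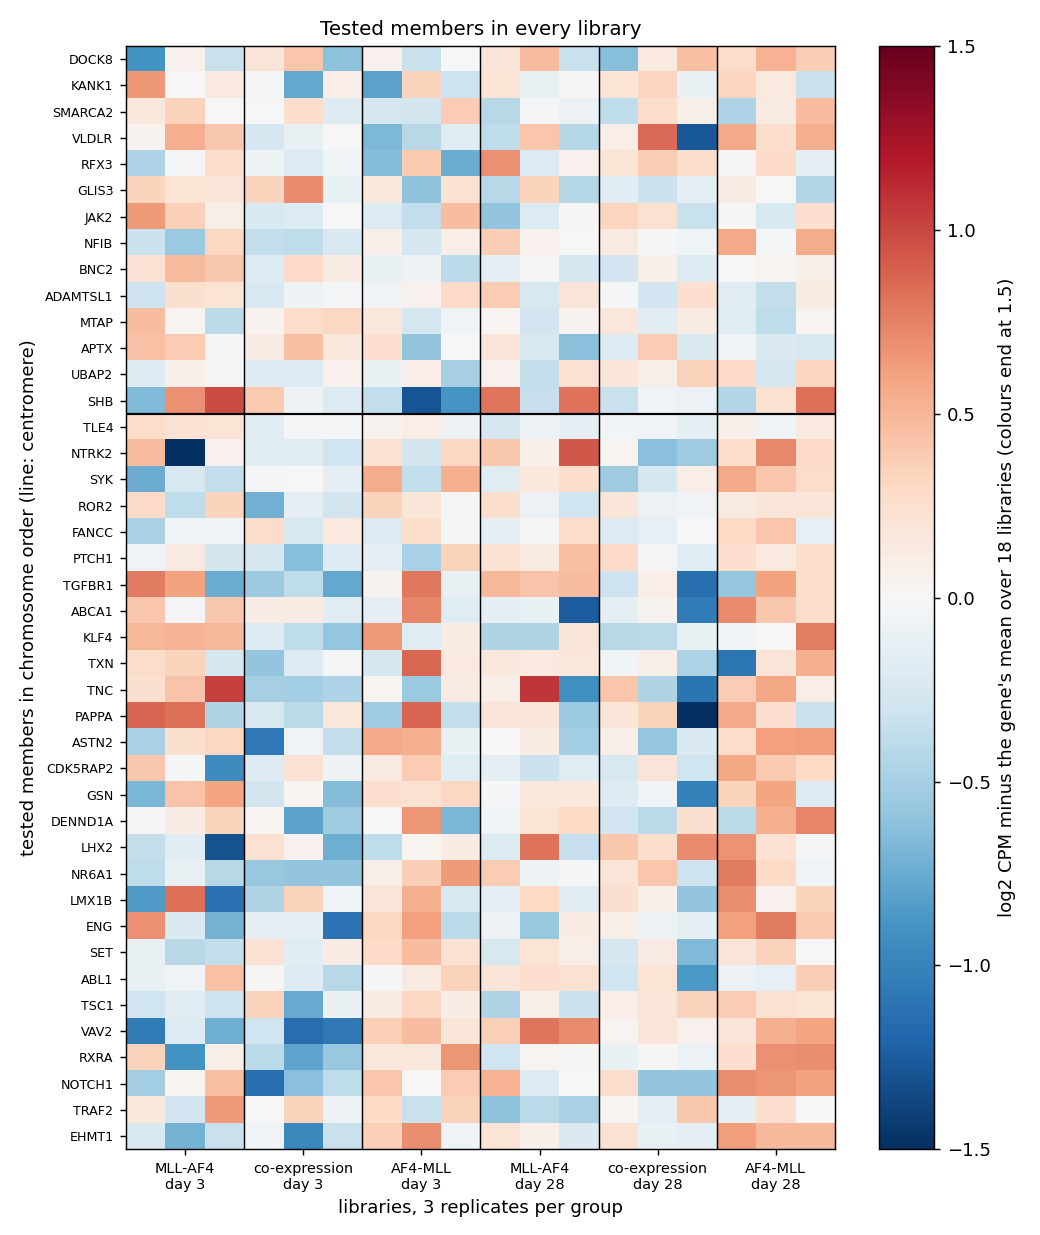
Log2 CPM of each tested member in each of the 18 libraries, minus the mean of that gene over all libraries (red higher, blue lower, colours end at 1.5). Rows run in chromosome order with a line at the centromere, and columns are the 3 replicates of each group. The AF4-MLL libraries of day 28 are red over most of 9q, while 9p shows no such block.

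By edgeR's quasi-likelihood test over all 17660 genes (adjusted p below 0.05), few single members were called in these comparisons. Against MLL-AF4, 0 members were called on day 3 (0.142% of all genes) and 0 on day 28 (0.0793%), with 6 and 10 members at an unadjusted p below 0.05, where 9.55% and 8.26% of all genes were. DESeq2 called 0 members on day 3, where it gave an adjusted p to 4 of the 44, and 0 on day 28, where it gave one to all 44. Of all genes it called 5 of 2722 on day 3 and 2 of 54425 on day 28. Against co-expression, NR6A1 (0.93, SE 0.22) and NOTCH1 (1.00, SE 0.28) were called on day 3 (1.28% of all genes) and NOTCH1 (0.79, SE 0.23) on day 28 (1.69%). The choice of members used these comparisons, and the calls are given as values only. NR6A1 was no longer called without AF4-MLL replicate 3 (adjusted p = 0.19) or co-expression replicate 3 (0.05). For NOTCH1, leaving out single libraries gave adjusted p-values up to 0.22 on day 3 (call kept only without AF4-MLL replicate 2) and up to 0.33 on day 28 (kept only without co-expression replicate 1). The SE of a single member was 0.27 at the median against MLL-AF4 on day 3, about the size of the shift of the whole arm.

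The members were also grouped by role. The counts below rest on the comparisons by which the members were chosen, and 30.3% of all genes on day 3 and 31.5% on day 28 stood above both settings, so nothing is read from them. Of 15 tested receptors and signalling proteins, 0 of 4 on 9p and 9 of 11 on 9q stood above both settings on day 3, and 2 and 6 on day 28. Of 13 transcription and chromatin factors, 1 of 5 on 9p and 5 of 8 on 9q did so on day 3, and 3 and 7 on day 28. Of 10 genes of metabolism, DNA repair, the skeleton and traffic, 0 of 4 and 3 of 6 did so on day 3, and 0 and 5 on day 28. Of 4 matrix, adhesion and neural genes, 1 of 1 and 1 of 3 did so on day 3, and 0 and 2 on day 28.

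Comparisons that the choice of members did not use, though they share libraries with those it used, showed single genes. Co-expression cells of day 3 were lower than MLL-AF4 cells in KLF4, a factor of stem cell and epithelial identity. KLF4 had 18.7, 16.4 and 14.3 CPM in co-expression and 30.1, 30.4 and 30.1 in MLL-AF4 libraries, without overlap, a log2 difference of −0.87 (SE 0.25, adjusted p = 0.039 by edgeR). It was the only member called of 42, a share near that of all genes (1.81%). The call was lost without any 1 of the MLL-AF4 libraries of day 3 (adjusted p = 0.12 to 0.13), without co-expression replicate 2 or 3 (0.094 and 0.15), with no filter on low counts (0.20) and in DESeq2 (0.18). AF4-MLL libraries had 33.4, 18.8 and 23.1 CPM of KLF4 on that day and overlapped the MLL-AF4 range. By day 28 KLF4 stood at 20.8, 21.5 and 36.3 CPM in AF4-MLL, 15.7, 15.6 and 24.2 in MLL-AF4 and 16, 16.2 and 19.9 in co-expression libraries, and only MLL-AF4 replicate 3 reached into the AF4-MLL range.

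Of the 42 members, 11 had a fitted value above 0 in that comparison, with a median of −0.27, where 49.7% of all genes were above 0. The running median along the chromosome was −0.38 around ABCA1, −0.27 around KLF4, −0.28 around JAK2 and −0.19 around TLE4, and lay between −0.10 and 0.20 from DENND1A to TRAF2. From TGFBR1 to GSN, where AF4-MLL cells were near MLL-AF4 cells on day 3, it was negative at every member (−0.38 to −0.06). Both comparisons share the MLL-AF4 libraries of day 3. JAK2 (−0.53, adjusted p = 0.15), TLE4 (−0.31, 0.14) and TNC, the matrix protein tenascin-C (−1.09, 0.14), did not pass the edgeR test. On day 28, 0 members were called between co-expression and MLL-AF4 cells (1.17% of all genes), 4 had an unadjusted p below 0.05 (11.8% of all genes), and DESeq2 called 0 of the 43 to which it gave an adjusted p (14 of 20659 over all genes). The smallest adjusted p there was 0.081, for NTRK2, the receptor of the neurotrophin BDNF, with a difference of −0.72 (SE 0.23). NTRK2 had 21.6, 13.7 and 14.6 CPM in co-expression and 28, 22.3 and 40.3 in MLL-AF4 libraries, without overlap.

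Between the days, 2 of 42 members were called in MLL-AF4 cells, a share near that of all genes (2.87%). When any 1 of the 6 libraries was left out, 0 or 1 members were called, and 215 to 331 of all genes. TLE4 fell from 267, 256 and 254 to 185, 207 and 198 CPM between day 3 and day 28, by 0.40 on the log2 scale (SE 0.12, edgeR adjusted p = 0.031). VAV2 rose from 5.58, 10.1 and 6.94 to 14.8, 20.1 and 18.8 CPM, by 1.27 (SE 0.35, edgeR adjusted p = 0.021). The days did not overlap for either gene. The call of TLE4 was lost whichever of these 6 libraries was left out (adjusted p = 0.061 to 0.16), and with no filter on low counts (0.28). VAV2 lost it without day 3 replicate 1 or 3 (0.17 and 0.099) or day 28 replicate 2 or 3 (0.12 and 0.051), and DESeq2 gave VAV2 no adjusted p. With the nuclear total as the only scaling, 6 members were called, JAK2, ABCA1, KLF4 and TRAF2 in addition. That scaling called 1223 of all 17660 genes and moved the median of the genes not on chromosome 9 by −0.17 between the days.

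In AF4-MLL and in co-expression cells, 0 members were called between the days (0.606% of all genes in each), with 2 and 5 at an unadjusted p below 0.05 (9.29% and 9.51% of all genes). DESeq2 called 0 of the 34 and 0 of the 43 members to which it gave an adjusted p (61 of 13273 and 62 of 22770 over all genes). VAV2 had 5.22 to 9.33 CPM on day 3 and 11.8 to 13.1 on day 28 in co-expression cells, a difference of 0.86 (SE 0.33, edgeR adjusted p = 0.31) in libraries that did not overlap. In AF4-MLL cells its difference was 0.12 (SE 0.27). NR6A1 differed between the days by 0.78 in co-expression cells (SE 0.22, edgeR adjusted p = 0.066), from 16.7, 16.4 and 16.4 to 28.2, 33 and 19.9 CPM, again without overlap. In AF4-MLL cells NR6A1 differed by 0.03 (SE 0.19).

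The interaction, which compares the change over time between settings, is built from the differences of AF4-MLL cells by which the members were chosen, and its values are a description only. For AF4-MLL against MLL-AF4, edgeR called 0 members (0.317% of all genes) and 7 had an unadjusted p below 0.05 (9.75% of all genes). For AF4-MLL against co-expression it called 0 members (0% of all genes) and 2 had an unadjusted p below 0.05 (5.05% of all genes). DESeq2 called 0 in either, of the 15 and 44 members to which it gave an adjusted p (6 of 5887 and 0 of 54425 over all genes). Among the 7, VLDLR had a value of 1.22 (SE 0.50), VAV2 of −1.15 (SE 0.45) and ABCA1 of 1.05 (SE 0.35).

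**Figure D5:**
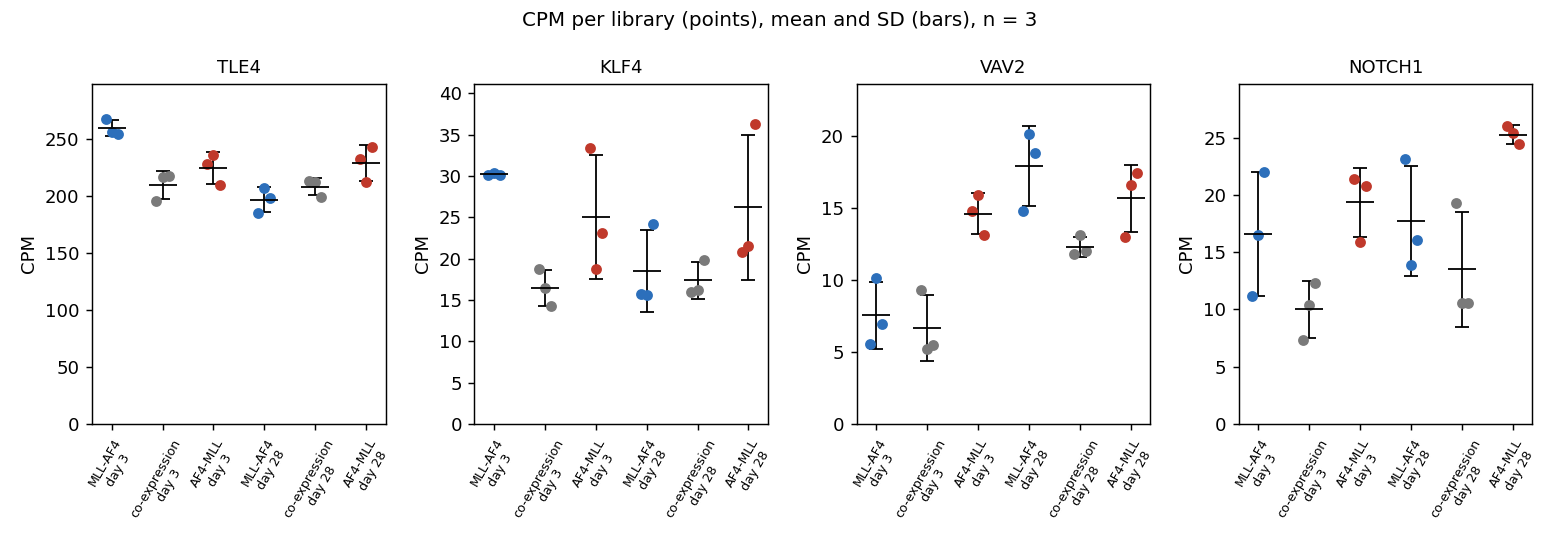
CPM of TLE4, KLF4, VAV2 and NOTCH1 in each library (points) with mean and SD (bars, n = 3). MLL-AF4 cells (blue) of day 3 stand highest in TLE4, VAV2 is lowest in MLL-AF4 and co-expression cells of day 3, and NOTCH1 is highest in AF4-MLL cells (red) of day 28.

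Of the genes of chromosome 9 that are no members, those with the smallest adjusted p between co-expression and MLL-AF4 cells were LHX6 (−0.69, SE 0.20, edgeR adjusted p = 0.045) and HSPA5 (0.45, SE 0.13, 0.048) on day 3. On day 28 they were FAM129B (−1.11, SE 0.30, edgeR adjusted p = 0.035) and DCAF12 (0.67, SE 0.19, 0.051). The first 3 lie on 9q33 and DCAF12 on 9p13.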

How the data were processed

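Chromatin accessibility was measured by ATAC-seq, with Nextera transposase on fresh nuclei, in 18 HEK293T libraries. The authors deposited raw counts of reads per gene for 54425 genes, and the submitters' processing notes name bcl2fastq, Bowtie2, HTSeq and GRCh38. The feature counted over each gene, and whether counting used strand, are not given in the sources used here, so levels were not compared between genes. All 18 columns matched a labelled library, and no columns of comparisons by the authors were used.

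The members, gene lists and tests were chosen with earlier results of these data known. Genes were filtered with filterByExpr (minimum count 10, total 15), scaled by TMM and fitted with edgeR 4.0.16 (quasi-likelihood F test, R 4.3.3) in 6 groups over all 18 libraries, with 12 residual degrees of freedom. 17660 genes were tested, and a gene was called at a Benjamini-Hochberg adjusted p below 0.05 over all of them. The SE is the absolute log2 difference divided by the square root of F. Test power depends on depth, which was 442159 to 3539937 counts per library, 297567 to 1116385 of them nuclear. Intervals were not computed, and SDs and SEs cover the spread between libraries. Arm totals were compared with exact permutation tests. Positions came from RefSeq GRCh38.p14, matched by symbol for 15483 of the tested genes (87.7%), 615 of them on chromosome 9. Genes without a match count as not placed on chromosome 9. The fit was tested on simulated data first.

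Values in every library are given for members called in a comparison that the choice did not use, for the 6 highest and 3 lowest members on each day by their difference from the mean of both settings, and for the first and last tested member of each arm. Beyond that rule, NTRK2 was chosen after its values were seen. Of the other chromosome 9 genes, the 2 with the smallest adjusted p in each comparison of co-expression with MLL-AF4 are named. Of the listed markers of other cell types, 1 is not reported here. Alternatives were other scalings and filters (also a mean of at least 30 counts), a replicate block, fits of the compared groups alone, DESeq2 1.42.0, and leaving out each library. A promoter GC offset was added after seeing the data. Figures used matplotlib 3.10.9 in Python 3.11.15.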

Additional observations from a re-analysis of the deposited data

How the results depend on the processing

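Few members were called, so counts of calls moved with small changes. Against co-expression on day 3 (2 members called) the count was 1 with no filter on low counts, 1 with the replicate block, 0 in DESeq2 and 0 to 3 when single libraries were left out. Of all genes, these runs called 107 of 54425, 218 of 17660, 28 of 9053 and, without single libraries, 86 to 179. On day 28 (1 called) the count of members was 2 with a loess offset, 0 with no filter, 2 in the fit of the compared groups alone, 0 in DESeq2 and 0 to 2 without single libraries. All genes called were, in this order, 305 of 17660, 123 of 54425, 326 of 16339, 40 of 18549 and 103 to 200. Between co-expression and MLL-AF4 the count of members was, on day 3 (1 called), 2 with a loess offset, 0 with no filter, 0 with a mean of at least 30 counts, 0 in DESeq2 and 0 to 1 without single libraries, and on day 28 (0 called) 1 with a mean of at least 30 counts, 1 in the compared groups alone and 0 to 1 without single libraries. Over all genes the day 3 runs called 302 of 17660, 265 of 54425, 266 of 6105, 60 of 12218 and 113 to 272. The day 28 runs called 146 of 6105, 249 of 15850 and 59 to 131. From day 3 to day 28 the count of members was, in MLL-AF4 cells (2 called), 6 with the nuclear total as the only scaling, 1 with no filter, 1 with a mean of at least 30 counts, 1 in DESeq2 and 0 to 1 without single libraries, and in co-expression cells (0 called) 1 with the filter at 30 counts and 0 to 1 without single libraries. In MLL-AF4 cells these runs called 1223 of 17660, 248 of 54425, 473 of 6105, 211 of 7997 and 215 to 331 of all genes. In co-expression cells they called 101 of 6105 and 82 to 102. DESeq2 gave an adjusted p to 24 members against co-expression on day 3 and to 42 on day 28, to 32 between co-expression and MLL-AF4 on day 3 and to 21 between the days in MLL-AF4 cells, and its counts cover only these. The nuclear total alone shifted the median of genes not on chromosome 9 between the days by −0.225 in AF4-MLL, −0.172 in MLL-AF4 and −0.225 in co-expression cells.

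The arm medians kept their order in every alternative. Against MLL-AF4 on day 3, 9q was 0.29 with the nuclear total, 0.34 with no filter and 0.23 to 0.26 without single libraries, and 9p was −0.08, −0.03, −0.09 in the compared groups alone and −0.15 to −0.09 without single libraries. On day 28, without single libraries, 9q was 0.26 to 0.29 and 9p −0.02 to 0.02. Against co-expression on day 3, 9p was −0.04 with a loess offset, −0.07 with no filter and −0.05 to −0.01 without single libraries. The median of 9p13 against MLL-AF4 on day 3 turned to 0.02 with no filter. With a promoter GC offset, added after seeing the data and limited to the 69% of tested genes with a listed promoter, the 9q medians were 0.27, 0.28, 0.28 and 0.34. The causes were not tested.

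Replicate numbers did not pair the samples: over 45 pairs of libraries with the same number, the correlation of deviations had a median of −0.007 and a highest value of 0.037. With the replicate block NOTCH1 lost its call against co-expression on day 3 (edgeR adjusted p = 0.053), and no other count of called members moved. Depth limits single genes, since members held 684 to 2090 counts per library in all.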
